A study of Mus musculus with 8 samples.

Results

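Ephrins with their Eph receptors, and semaphorins with their plexin and neuropilin receptors, form families of guidance cues that act between cells. Their genes were followed here in mouse liver progenitor cells that had received a GRHL2 plasmid. The members were taken by symbol alone, as every row of the expression table named as an ephrin (Efna, Efnb), an Eph receptor (Epha, Ephb), a semaphorin of classes 3 to 7 (Sema), a plexin (Plxn) or a neuropilin (Nrp1, Nrp2). This gave 52 of the 18671 genes of the table, with 8 ephrins, 13 Eph receptors, 20 semaphorins, 9 plexins and 2 neuropilins. Epha3 was not analysed here.

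BMEL cells are a line of bipotential mouse embryonic liver cells, which can be driven towards hepatocytes or cholangiocytes. They were grown on collagen in medium with serum, EGF, IGFII and insulin. RNA was taken 48 h after transfection with the GRHL2 plasmid (labelled pIGrhl2) in 4 samples or with the pcDNA3 vector in 4 samples. The study describes 4 independent biological replicates, numbered 1 to 4 in each group. The GRHL2 plasmid carried a Flag-tagged human GRHL2 cDNA under an EF1A promoter and also expressed EGFP, so the groups differed by more than GRHL2, and no sorting of transfected cells is described. The question put to these samples was which genes change when GRHL2, a transcription factor of epithelial cells, is supplied to liver progenitors.

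Eph receptors are receptor tyrosine kinases, and their ephrin ligands are themselves held at the membrane of the neighbouring cell, ephrin-A by a lipid anchor and ephrin-B by a transmembrane segment, so signals can run into both cells at a contact. In epithelia they are known for keeping groups of cells apart, as EphB2 and EphB3 do along the intestinal crypt. Semaphorins bind plexins, whose inner part acts on small GTPases and through them on the cytoskeleton and on adhesion to the matrix. Class 3 semaphorins are secreted and mostly need a neuropilin as co-receptor, whereas classes 4 to 7 are held at the membrane and mostly bind plexins directly.

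Values were on a log2 scale and were read as normalised for transcript length. Every comparison of levels between genes, and every share of a role, rests on this reading. The read depth of each sample is unknown. SDs are those between the 4 samples of a group. SEs and intervals come from limma, which moderates the variance of each gene towards a trend over all genes. If the values are rlog (a regularised log transformation), as they were read, the transformation pulls samples together for genes with few reads. It then understates the differences of low genes, which was not tested. A difference below is the mean of the GRHL2 samples minus the mean of the pcDNA3 samples on this log2 scale. A gene is called higher or lower when limma gave a Benjamini-Hochberg adjusted p under 0.05 over all 18671 genes. The values are bulk RNA, in which a change per cell and a change in the share of cells that carry it cannot be told apart.

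Grhl2 itself (chr15:37233036-37363569, plus strand) lay at 4.68, 4.57, 4.42 and 4.44 in pcDNA3 samples 1 to 4 and at 6.30, 6.96, 5.65 and 6.05 in GRHL2 samples 1 to 4. It was higher in every GRHL2 sample, by 1.71 (SE 0.22, limma adjusted p = 0.00100), and the samples thus matched their labels; reads of the human cDNA and of the mouse gene cannot be told apart in this value. Replicates 1 and 2 stood apart from replicates 3 and 4 in both groups, with a Grhl2 difference of 2.0 within the former and 1.42 within the latter. The labels name no batch. Of 15 markers of bipotential liver cells, 14 were in the table. Their levels in pcDNA3 samples ran from 5.25 for Alb, 6.43 for Epcam and 6.64 for Sox9 to 11.16 for Hnf4a, 15.05 for Krt19 and 15.31 for Krt8, beside sample medians of 6.42 to 6.49 over all genes, and 3 (Epcam, Cdh1 and Itga6) were called higher (10.5% of all genes) and 1 (Afp) lower (5.91%). Defining markers of blood vessels were low, with Pecam1 at 3.33, Cdh5 at 1.23 and Tie1 at -0.55, but 2 of the 7 endothelial markers in the table (Flt1 and Vwf) were called higher (10.5% of all genes), and the summed level of the list ran from 5.73 to 5.86 in pcDNA3 samples and from 5.96 to 6.34 in GRHL2 samples. Flt1, the marker with the highest level, made up the largest part of this sum and went from 4.89 to 5.45. Pecam1 (-0.08, limma adjusted p = 0.115) and Cdh5 (0.01, adjusted p = 0.845) were not called, and 6 of the 7 differences were positive. The part of this list in the results was not tested. The summed levels of 6 fibroblast markers (5.88 to 6.11 against 6.02 to 6.21), 6 blood markers (8.74 to 8.92 against 8.75 to 9.07) and 7 neural markers (9.28 to 9.40 against 9.25 to 9.39) overlapped between the groups. In these lists, Pdgfrb among fibroblast markers was called higher by 0.11 (adjusted p = 0.00886), and among neural markers 2 of 7, Nefl by 0.22 (adjusted p = 0.0199) and Sox10 by 0.064 (adjusted p = 0.0101), while no blood marker was called (limma; 1 higher at an unadjusted p under 0.05). Map2, at 9.16 in pcDNA3 samples, made up most of the neural sum and was not called (-0.07, adjusted p = 0.379). Their part in the results was not tested either.

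Most members that passed the test were higher in GRHL2 samples. Of the 52 members, 20 were called higher, against a background of 10.5% of all genes, and 1, Plxnb3, was called lower, against a background of 5.91%. The called members were spread over ligands (10 of 28 higher) and receptors (10 of 24 higher). EphB receptors rose in 4 of 5 cases, and class 5, 6 and 7 semaphorins in 5 of 7. None of the 4 plexin-A receptors was called by limma, and none had an unadjusted p under 0.05. The median difference of the members was 0.14, beside 0.0066 for all genes, and 38 of 52 differences were positive, beside 53.9% of all genes. All 4 GRHL2 samples lay above all 4 pcDNA3 samples for 17 members (14.3% of all genes) and below them for 1 (9.47%). These differences were small, and Ephb2 was the only member with a difference above 1. Called members kept their direction within replicates 1 and 2 and within replicates 3 and 4. They were called on these same samples, so this is no separate check.

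**Figure D1:**
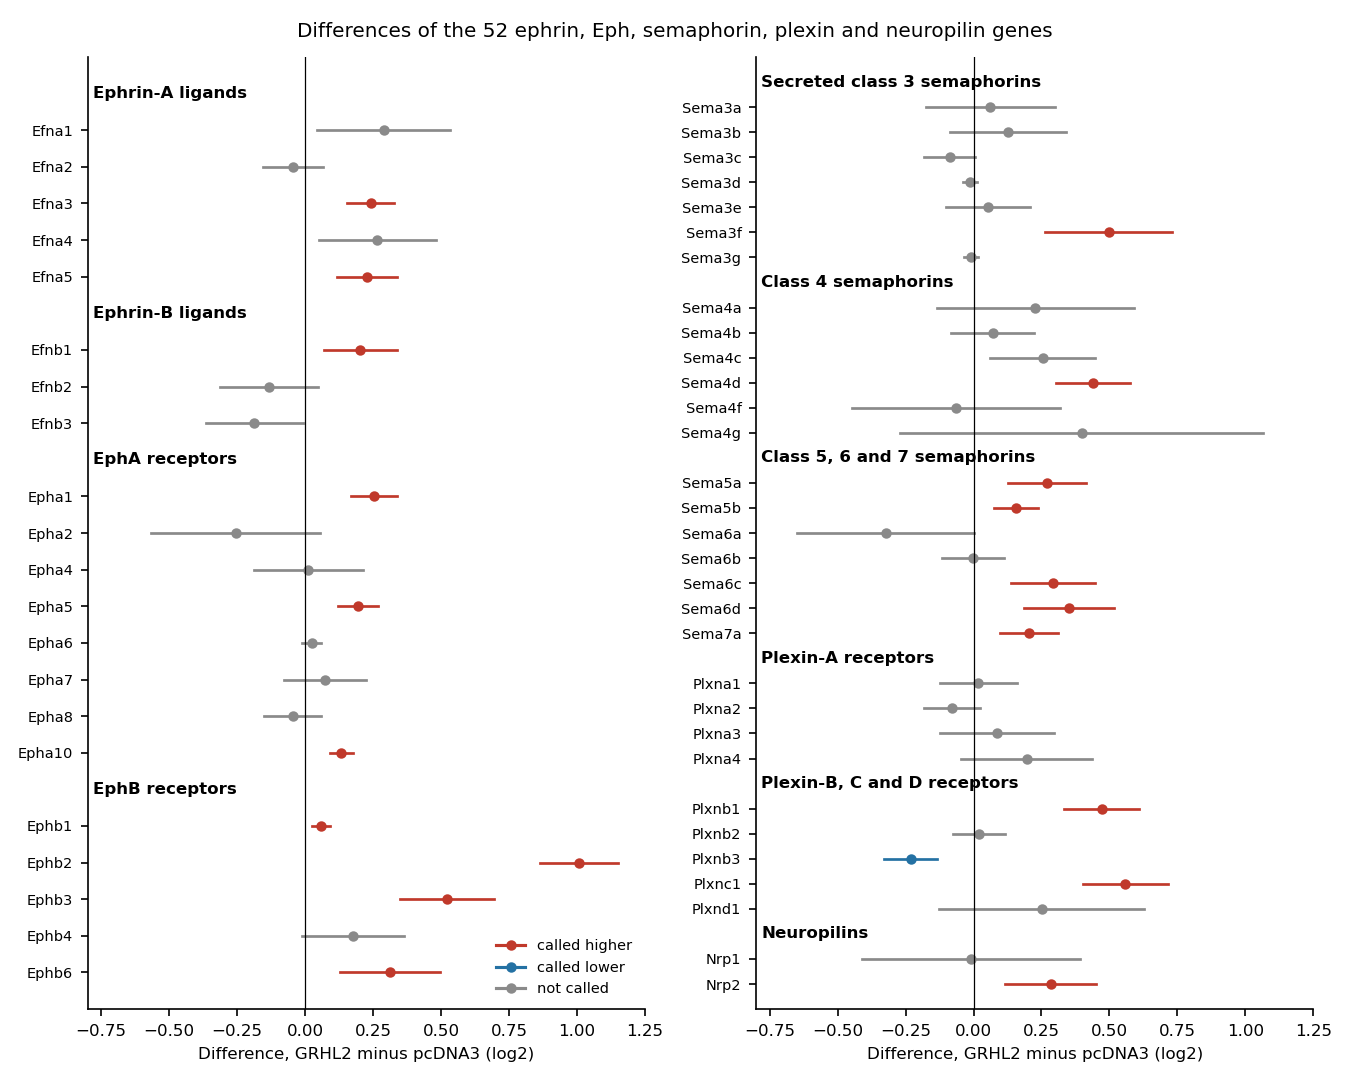
Difference of group means (GRHL2 minus pcDNA3, log2) of each of the 52 members, by role, with points coloured by the limma call and bars for the 95% confidence interval. Ephb2 stands furthest right at 1.01, 20 members called higher lie to the right of 0, and Plxnb3, called lower, lies at -0.23.

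Calls were more frequent among members of lower level. Among the 32 members with a mean value of at least 5, 8 were called higher (6.69% of all such genes), and among the 20 members under 5, 12 were called higher (15.9% of all such genes). Tested without the low genes, 8 members were again called higher (6.52% of the genes tested) and 0 lower (8.19%; limma, 2 lower at an unadjusted p under 0.05). With each sample shifted to an equal median, 16 members were called higher (5.99% of all genes) and 1 lower (6.73%), and the share of all calls in the table that were higher went from 63.9% to 47.1%, whereas it was 75.9% with an equal upper quartile and 77.0% with an equal sum. After correction for GC content, 16 members were called higher (9.62%) and 1 lower (6.88%). With the replicate number as a block in the limma fit, 28 members were called higher (18.2% of all genes) and 5 lower (13.9%), and none of the 21 calls was lost. Same-numbered samples of both groups deviated together, and the members that the block added are described further down.

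The start regions of Ephb2, Plxnc1, Ephb3 and Plxnb1, the called members with the largest differences among those with a RefSeq window (Sema3f has none here), are shown because GRHL factors are known to bind the sequence AACCGGTT or close variants of it. RefSeq windows of the GRCm38.p6 build were at hand for 46 of the 52 members (60 windows). The 200 bases below end upstream of the start site, are read 5′ to 3′ on the strand of the gene, and carry in capitals any AACCNG, searched on both strands. They come from Ephb2 (chr4:136836063-136836262, minus strand), Plxnc1 (chr10:94944896-94945095, minus strand), Ephb3 (chr16:21204545-21204744, plus strand) and Plxnb1 (chr9:109095186-109095385, plus strand).
Ephb2: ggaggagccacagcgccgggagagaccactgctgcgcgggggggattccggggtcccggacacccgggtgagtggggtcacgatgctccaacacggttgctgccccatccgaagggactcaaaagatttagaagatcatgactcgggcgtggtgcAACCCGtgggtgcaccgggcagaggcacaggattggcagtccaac
Plxnc1: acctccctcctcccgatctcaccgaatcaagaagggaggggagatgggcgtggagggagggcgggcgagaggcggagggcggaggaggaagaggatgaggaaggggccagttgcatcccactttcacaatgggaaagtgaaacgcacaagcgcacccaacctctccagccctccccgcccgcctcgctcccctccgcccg
Ephb3: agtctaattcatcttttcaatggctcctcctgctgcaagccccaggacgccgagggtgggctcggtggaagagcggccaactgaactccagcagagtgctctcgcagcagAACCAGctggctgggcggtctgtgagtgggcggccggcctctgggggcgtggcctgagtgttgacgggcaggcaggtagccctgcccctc
Plxnb1: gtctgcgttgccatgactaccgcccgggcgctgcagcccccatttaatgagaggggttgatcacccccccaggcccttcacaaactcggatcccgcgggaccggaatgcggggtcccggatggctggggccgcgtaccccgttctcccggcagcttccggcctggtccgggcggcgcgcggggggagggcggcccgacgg
The match begins 95 bases before the RefSeq start of Ephb2 and 140 bases before that of Ephb3. Neither the Plxnc1 nor the Plxnb1 stretch holds these letters.

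Over the 250 bases upstream of each start, on both strands, the full AACCGGTT was in 0 of the 60 member windows and in 0.116% of the 32851 windows of all genes. The looser AACCNGTT, which holds AACCNG within it, was in 2 member windows, those of Sema6d and Sema6c, and in 1.79% of all windows. AACCNG alone was in 22 member windows of 21 genes and in 33.9% of all windows, and for the called members in 7 of 25 windows. These matches describe letters and not binding. The 24 bases around the AACCNGTT match (in capitals), chosen after the search, come from Sema6d (chr2:124653521-124653544, plus strand, 52 bases before a RefSeq start at 124653581) and Sema6c (chr3:95164139-95164162, plus strand, 192 bases before a RefSeq start at 95164339). Both starts are internal to the annotated genes, downstream of their first bases at 124089969 and 95160457.
Sema6d: aaacgagaAACCAGTTtcaccaca
Sema6c: agcacaccAACCAGTTtgggccag

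Among the EphB receptors, Ephb2 had the largest difference of all members, followed in this group by Ephb3. Ephb2 (chr4:136647539-136835988, minus strand), a receptor for ephrin-B ligands, lay at 3.34, 3.38, 3.41 and 3.38 in pcDNA3 samples 1 to 4 and at 4.40, 4.57, 4.36 and 4.21 in GRHL2 samples 1 to 4. The groups were far apart, and the 4 pcDNA3 samples were nearly equal. Its mean rose from 3.38 ± 0.029 to 4.38 ± 0.15 (SD, n = 4 each), a difference of 1.01 (SE 0.064, 95% interval 0.86 to 1.15), or 2.01-fold, with a limma adjusted p of 2.90e-05. The difference was 1.13 within replicates 1 and 2 and 0.89 within replicates 3 and 4. Ephb2 is a gene of modest level in these cells, above 34.4% of all genes in the table.

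Ephb3 (chr16:21204755-21223305, plus strand), a close relative of Ephb2 with the same kind of ligand, lay at 5.25, 5.07, 5.36 and 5.37 in pcDNA3 samples and at 5.63, 5.85, 5.88 and 5.77 in GRHL2 samples. The groups did not overlap, and replicate 2 was the lowest of the pcDNA3 samples. The difference was 0.52 (SE 0.077), or 1.44-fold, with a limma adjusted p of 0.00185. Ephb6 (chr6:41605482-41620509, plus strand), whose kinase domain is inactive, lay at 5.38, 5.48, 5.67 and 5.47 in pcDNA3 samples and at 5.84, 5.59, 5.92 and 5.89 in GRHL2 samples. Its GRHL2 replicate 2 fell below pcDNA3 replicate 3, so the groups overlapped. The difference of 0.31 (SE 0.083) passed at a limma adjusted p of 0.0301 and no longer did after correction for GC content (adjusted p = 0.0511), nor without pcDNA3 replicate 1, 2 or 4 or GRHL2 replicate 1, 3 or 4 (adjusted p from 0.0655 to 0.0887). Ephb1 was called higher by 0.06 (adjusted p = 0.0257), but its level of -0.05 in pcDNA3 samples was above only 4.74% of all genes, and the call was lost without pcDNA3 replicate 1, 2 or 3 or GRHL2 replicate 3 (adjusted p from 0.0508 to 0.0675). Ephb4, the receptor that marks veins together with ephrin-B2 on arteries, was the most abundant EphB gene at 8.67 and was not called (0.18, adjusted p = 0.183; with the replicate block, adjusted p = 0.00609).

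Among EphA receptors, 3 of 8 were called higher (10.5% of all genes), each with a mean value under 5 (15.9% of all such genes). Epha1 (chr6:42358487-42373268, minus strand), a receptor known from epithelial tissues, lay at 2.89, 3.05, 2.94 and 2.92 in pcDNA3 samples and at 3.24, 3.22, 3.15 and 3.21 in GRHL2 samples. The groups did not overlap. The difference was 0.25 (SE 0.038, limma adjusted p = 0.00200). Of the exonic bases of Epha1, 6.01% also lie in Zyx on the other strand. Counting in union mode without strand, as the methods describe, cannot assign reads in these bases to either gene. Epha5 rose by 0.19 (adjusted p = 0.00428) and Epha10, a further receptor with an inactive kinase domain, by 0.13 (adjusted p = 0.00140). The abundant members of the group did not pass. Epha2 lay at 12.79, 12.94, 12.51 and 12.46 in pcDNA3 samples and at 12.61, 12.68, 12.23 and 12.16 in GRHL2 samples. The groups overlapped, although each GRHL2 sample was below the pcDNA3 sample of the same number (difference -0.26, adjusted p = 0.245; with the replicate block, adjusted p = 0.000417). Epha4 differed by 0.01 (95% interval -0.19 to 0.21), and Epha7, Epha8 and Epha6 were not called.

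Of the ephrin-A ligands, Efna3 rose by 0.24 (limma adjusted p = 0.00303) and Efna5 by 0.23 (adjusted p = 0.0125), both without overlap between the groups. For Efna3, 14.1% of the exonic bases are shared with the antisense gene Gm15998. Efna1, the most abundant of the ephrin-A ligands at 7.89 and a ligand of EphA2, differed by 0.29 and Efna4 by 0.27, without passing the test (adjusted p = 0.102 and 0.0905; with the replicate block, 0.00160 and 0.0185). The difference of Efna2 was -0.05. Ephrin-B ligands were divided. Efnb1 rose by 0.20 at a limma adjusted p of 0.0459, which became 0.0652 after correction for GC content, and it was called without pcDNA3 replicate 3 but in no other fit that left out a single sample (adjusted p from 0.0547 to 0.120). Efnb2, the most abundant ephrin at 10.24, differed by -0.13 and Efnb3 by -0.19, neither of them called (adjusted p = 0.30 and 0.141; with the replicate block, both called lower, at 0.0383 and 0.0148).

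**Figure D2:**
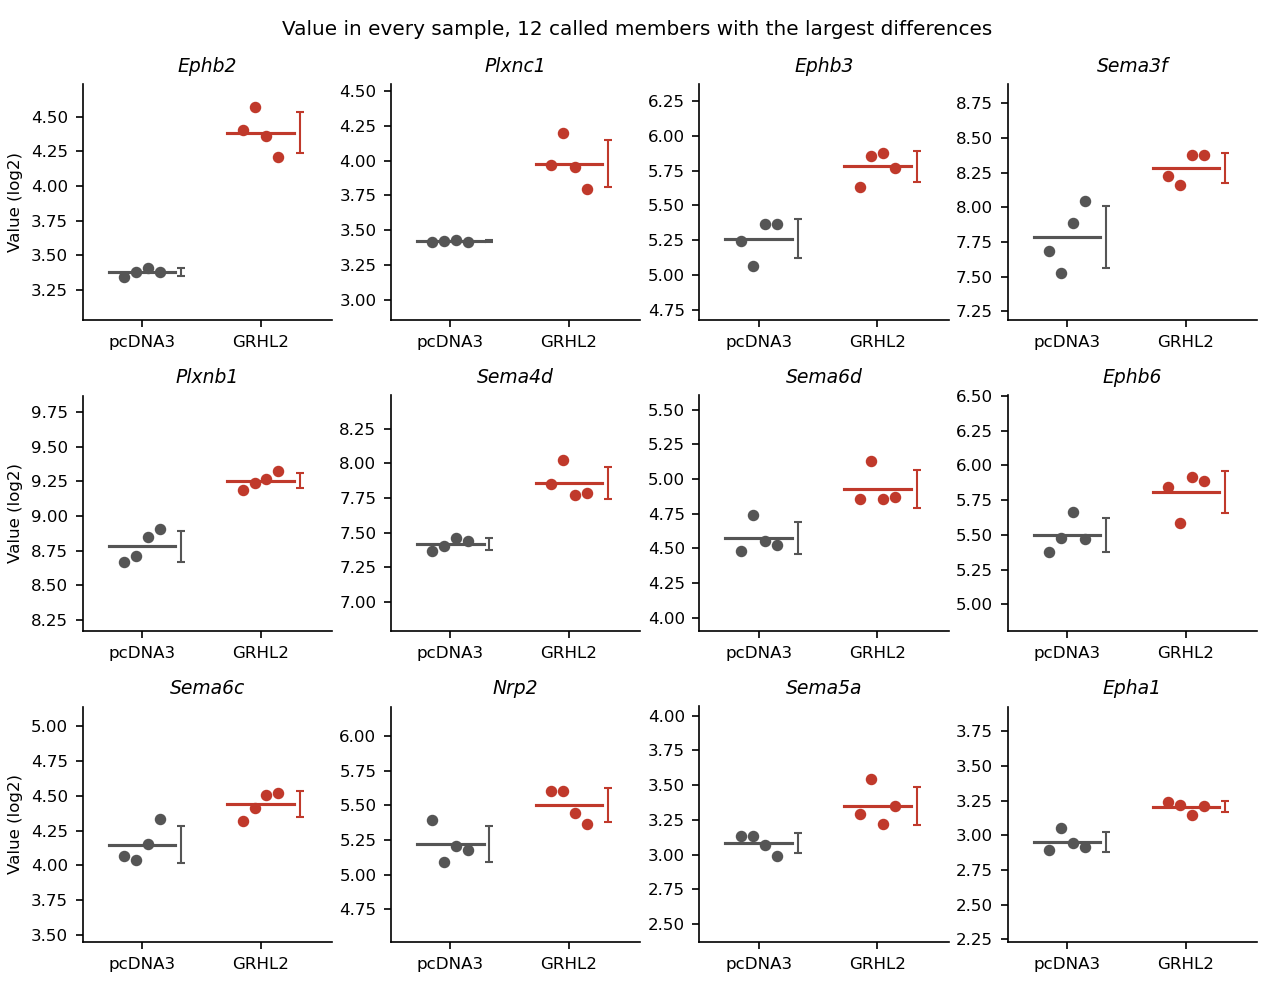
Log2 values of the 12 called members with the largest differences, a panel each, with a dot per sample, a line at the mean of each group and a bar for the SD (n = 4 each). The y scales span the same width in every panel: the Ephb2 groups lie 1.01 apart, and those of Ephb6, Sema6c and Nrp2 overlap.

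Of the 7 secreted semaphorins of class 3, 1 was called higher (10.5% of all genes), Sema3f, and 2 with the replicate block (18.2%). Sema3f (chr9:107681500-107710475, minus strand), a ligand that binds through neuropilin-2, lay at 7.69, 7.53, 7.88 and 8.04 in pcDNA3 samples and at 8.22, 8.16, 8.37 and 8.38 in GRHL2 samples. The groups did not overlap, although replicates 3 and 4 were higher than replicates 1 and 2 in both. The difference was 0.50 (SE 0.105), or 1.41-fold, with a limma adjusted p of 0.0112, and it was 0.58 within replicates 1 and 2 and 0.41 within replicates 3 and 4. The most abundant semaphorin was Sema3c, at 11.73 in pcDNA3 samples, and it differed by -0.09 (95% interval -0.18 to 0.01, adjusted p = 0.193). Sema3b (0.13), Sema3a (0.06) and Sema3e (0.05) were not called, and Sema3d and Sema3g lay at -1.35 and -1.49, close to the lower end of the table. With the replicate block Sema3b was called higher (limma adjusted p = 0.0316), but not with GC correction and the block.

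Class 4 semaphorins are membrane ligands mostly of plexin-B receptors. Of the 6, 1 was called higher (10.5% of all genes), Sema4d, and 4 with the replicate block (18.2%). Sema4d (chr13:51685529-51793747, minus strand), the ligand of plexin-B1, lay at 7.37, 7.40, 7.46 and 7.44 in pcDNA3 samples and at 7.85, 8.03, 7.77 and 7.78 in GRHL2 samples. The groups were separate by more than the range of either. The difference was 0.44 (SE 0.061), or 1.36-fold, with a limma adjusted p of 0.00134. Sema4g had a difference of 0.40 that was not called (adjusted p = 0.407), since its samples were widely spread, at 8.08, 7.86, 8.64 and 8.89 in pcDNA3 samples and 8.34, 8.18, 9.17 and 9.36 in GRHL2 samples. Each GRHL2 sample was nonetheless above the pcDNA3 sample of the same number, by 0.26 to 0.53, and the blocked fit called it (adjusted p = 0.000660). Sema4c (0.25) and Sema4a (0.23) were not called (limma adjusted p = 0.0723 and 0.382), and the blocked fit called both (adjusted p = 0.00216 and 0.00392). Sema4b, the most abundant gene of class 4 at 8.77, differed by 0.07 (95% interval -0.08 to 0.22), and Sema4f by -0.06.

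Class 5, 6 and 7 semaphorins, which cross the membrane or are lipid-anchored, had 5 of 7 members called higher (10.5% of all genes), all with a mean value under 5 (15.9% of all such genes). Sema6d (chr2:124089969-124667770, plus strand), a ligand of plexin-A receptors, lay at 4.48, 4.74, 4.55 and 4.52 in pcDNA3 samples and at 4.85, 5.13, 4.86 and 4.87 in GRHL2 samples. The groups did not overlap and replicate 2 was the highest in both. The difference was 0.35 (SE 0.074, limma adjusted p = 0.0113). Sema6c (chr3:95160457-95174024, plus strand) lay at 4.07, 4.04, 4.15 and 4.33 in pcDNA3 samples and at 4.32, 4.42, 4.51 and 4.52 in GRHL2 samples. GRHL2 replicate 1 and pcDNA3 replicate 4 were nearly equal, so the groups just overlapped (0.29, SE 0.069, adjusted p = 0.0179; 0.0577 without pcDNA3 replicate 1). Sema5a (chr15:32244810-32696341, plus strand) lay at 3.14, 3.13, 3.07 and 2.99 in pcDNA3 samples and at 3.29, 3.54, 3.22 and 3.35 in GRHL2 samples. Here the groups were separate, with GRHL2 replicate 2 the highest (0.27, SE 0.064, adjusted p = 0.0187). Sema7a, the lipid-anchored semaphorin and ligand of plexin-C1, rose by 0.20 (adjusted p = 0.0174; 0.0792 after GC correction and 0.0532 without pcDNA3 replicate 1) and Sema5b by 0.16 (adjusted p = 0.0183; 0.102 after GC correction). The most abundant gene of these classes, Sema6a, went the other way without a call (-0.32, adjusted p = 0.162; with the replicate block, 0.000409; without GRHL2 replicate 2, called lower at -0.45 and 0.0322; without replicate 2 in both groups, an alternative chosen after seeing the data, at -0.33 and 0.00398), and Sema6b differed by 0.00 (95% interval -0.12 to 0.11).

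Plexins moved in both directions. Plxnc1 (chr10:94790866-94944835, minus strand), the receptor of Sema7a, lay at 3.41, 3.42, 3.43 and 3.42 in pcDNA3 samples and at 3.97, 4.20, 3.95 and 3.79 in GRHL2 samples. The pcDNA3 samples were almost identical and the groups far apart. The difference was 0.56 (SE 0.070), or 1.47-fold, with a limma adjusted p of 0.000807. Plxnb1 (chr9:109095389-109119917, plus strand), the receptor of Sema4d, lay at 8.67, 8.71, 8.85 and 8.91 in pcDNA3 samples and at 9.19, 9.24, 9.27 and 9.32 in GRHL2 samples. Its groups did not overlap, and with a level above 76.8% of all genes it was the most abundant of the called members. It rose by 0.47 (SE 0.062), or 1.39-fold, at a limma adjusted p of 0.00105.

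Plxnb3 (chrX:73757090-73772514, plus strand), a receptor of Sema5a, lay at 4.33, 4.23, 4.34 and 4.30 in pcDNA3 samples and at 3.99, 4.03, 4.07 and 4.17 in GRHL2 samples. It was the member called lower, with no overlap between the groups, and it fell by 0.23 (SE 0.044, limma adjusted p = 0.00700). Plxnb2, the most abundant of all 52 members at 12.88 and above 99.0% of all genes, differed by 0.02 (95% interval -0.07 to 0.12), a range that holds no change above 0.12 on this scale. Plxna1 (0.02, 95% interval -0.12 to 0.16), Plxna2 (-0.08), Plxna3 (0.09) and Plxna4 (0.20, adjusted p = 0.252) were not called, and Plxnd1, the receptor of Sema3e, differed by 0.25 (adjusted p = 0.349; with the replicate block, 0.00256).

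The neuropilins differed in level and in call. Nrp2 (chr1:62703285-62818695, plus strand) lay at 5.40, 5.09, 5.21 and 5.18 in pcDNA3 samples and at 5.61, 5.60, 5.44 and 5.36 in GRHL2 samples. GRHL2 replicate 4 was below pcDNA3 replicate 1, so the groups overlapped, while every GRHL2 sample exceeded the pcDNA3 sample of its number. The difference was 0.28 (SE 0.075, limma adjusted p = 0.0297), and it was not called without pcDNA3 replicate 2, 3 or 4 or GRHL2 replicate 1 or 2 (adjusted p from 0.0639 to 0.0788). Nrp1, which binds Sema3a and also VEGF, was the more abundant at 8.09 and differed by -0.01, with a wide 95% interval of -0.41 to 0.39.

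Set side by side, some ligands and receptors that are known to bind each other were both called higher; the pairs were chosen after the values were seen. Sema4d and Plxnb1 rose by 0.44 and 0.47, Sema7a and Plxnc1 by 0.20 and 0.56, and Sema3f and Nrp2 by 0.50 and 0.28. The Sema7a call was lost after GC correction (limma adjusted p = 0.0792), and Nrp2 was called in 12 of 20 alternatives. The pairs named are a selection of the known ones. In other pairs the ligand and the receptor were not both called. Sema3a and Nrp1 differed by 0.06 and -0.01, Sema3e and Plxnd1 by 0.05 and 0.25, and Efna1 and Epha2 by 0.29 and -0.26, all without a call. With the replicate block, Plxnd1 was called higher (adjusted p = 0.00256), Efna1 higher (0.00160) and Epha2 lower (0.000417), so that the calls of this last pair were opposite. For Sema5a and Plxnb3 the calls were opposite, at 0.27 and -0.23. Sema6d was called (0.35), whereas no plexin-A receptor was. Efnb2 and Ephb4 differed by -0.13 and 0.18 without a call, and with the replicate block they were called lower and higher.

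In each of the 10 roles the member with the highest level was not among those called (0 of 10 by limma, 1 with an unadjusted p under 0.05, and 5 with the replicate block, which called 32.1% of all genes). All 10 have a mean value of at least 5, and of all such genes 6.69% were called higher and 8.38% lower, so 0 of 10 is near that background. Of the other 42 members, 20 were called higher (10.5% of all genes), 12 of them with a mean value under 5 (15.9% of all such genes). These abundant members were Efna1, Efnb2, Epha2, Ephb4, Sema3c, Sema4b, Sema6a, Plxna1, Plxnb2 and Nrp1. In same-numbered samples 4 of them (Efnb2, Epha2, Sema3c and Sema6a) were lower in GRHL2 samples in all 4 pairs (21.3% of all genes). A further 2 (Efna1 and Ephb4) were higher in all 4 pairs (27.3% of all genes), and 4 were neither. The mean share that the leading gene took of its role's summed linear values was lower in GRHL2 samples in 8 of 10 roles, and in 4 of these the groups did not overlap. Sema6a held 68.3% of the class 5, 6 and 7 semaphorin total in pcDNA3 samples and 59.8% in GRHL2 samples. The share of Sema3c in class 3 was 70.8% and 67.2%, that of Ephb4 among EphB receptors 81.1% and 77.5%, and that of Plxnb2 among plexin-B, C and D receptors 88.5% and 85.9%. Epha2 took 87.2% and 84.9% of the EphA total, with overlap. Efna1 and Plxna1 were the leading genes whose mean shares were not lower. These shares were not tested, and no background over other groups of genes was taken for them.

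**Figure D3:**
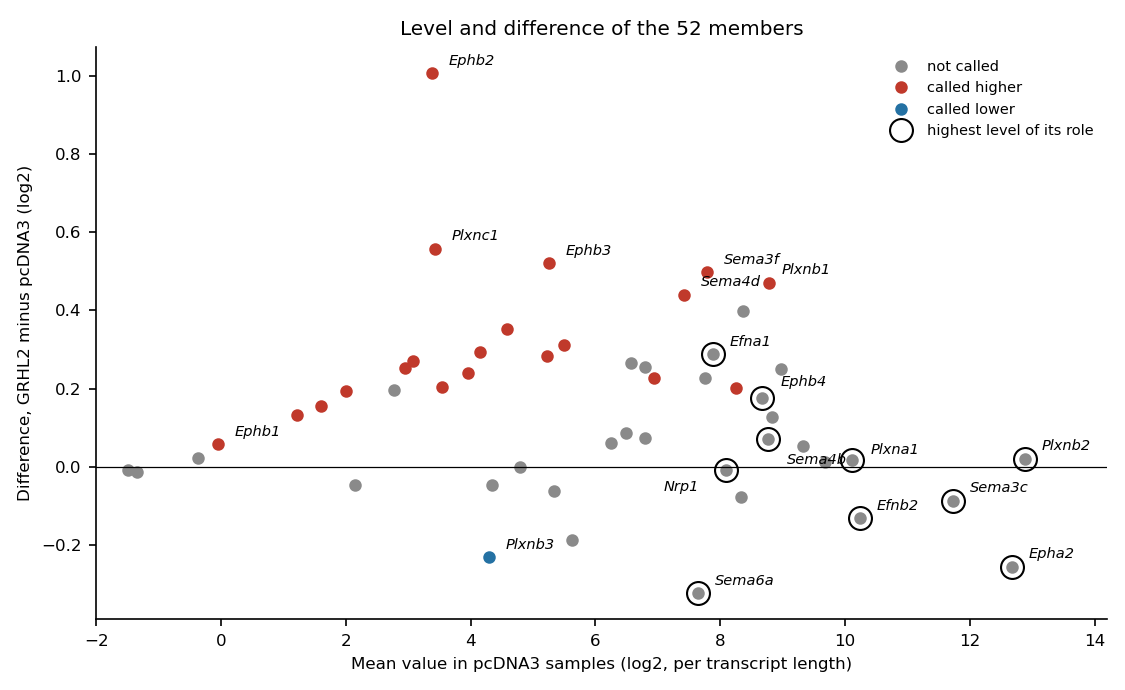
Mean log2 value in pcDNA3 samples (x axis, read as normalised for length) against the difference GRHL2 minus pcDNA3 (y axis, log2) for the 52 members, coloured by limma call, with the leading gene of each role ringed. The 10 ringed genes are not called, Plxnb2 lies furthest right at 12.88, and Ephb2 stands highest from a level of 3.38.

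A further 12 members were called with the replicate number as a block in the limma fit and not in the same fit without it. A term for replicates 1 and 2 against 3 and 4, in place of the block, called 11 of them (all but Sema6a, adjusted p = 0.0634), and an equal upper quartile called Sema4c. Efna4 and Sema4c were also called without pcDNA3 replicate 4 (adjusted p = 0.0359 and 0.0315). Those called higher were Sema4g (0.40), Efna1 (0.29), Efna4 (0.27), Sema4c (0.25), Plxnd1 (0.25), Sema4a (0.23), Ephb4 (0.18) and Sema3b (0.13), and those called lower were Sema6a (-0.32), Epha2 (-0.26), Efnb3 (-0.19) and Efnb2 (-0.13). Their adjusted p ran from 0.000409 to 0.0383 with the block and from 0.0723 to 0.409 without it. Over all members, 30 were higher in GRHL2 samples in all 4 pairs (27.3% of all genes) and 7 were lower in all 4 pairs (21.3%). The members called lower with the block thus include the most abundant ephrin, Efnb2, and the most abundant Eph receptor, Epha2.

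**Figure D4:**
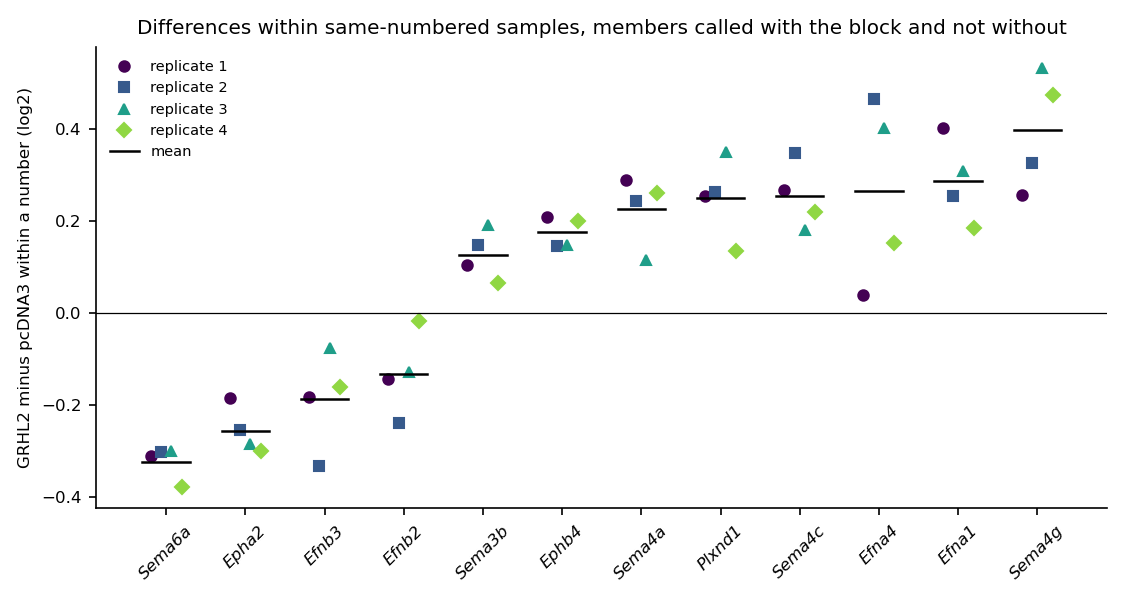
Difference between the GRHL2 and the pcDNA3 sample of the same number (log2), a dot per replicate number, for the 12 members called with the replicate block and not in the same fit without it. All 4 dots of each gene lie on the same side of 0, from -0.38 for Sema6a to 0.53 for Sema4g. The genes were called on these same differences, so this is no separate check.

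Signalling partners of these receptors were taken from lists of adaptors, exchange factors, kinases and co-receptors. Of 36 Eph and ephrin partners in the table, 7 were called higher (10.5% of all genes) and 2 lower (5.91%), with a median difference of 0.02. With the replicate block these were 10 (18.2%) and 6 (13.9%). The highest were Kalrn, an exchange factor for Rac, which went from 3.84 ± 0.10 to 4.32 ± 0.21 (SD, n = 4 each, difference 0.48, limma adjusted p = 0.00850), and Rgs3, which links ephrin-B to G proteins (0.37, adjusted p = 0.00732). Chn2, a Rac GTPase-activating protein, rose by 0.25 (adjusted p = 0.00898), and Vav3, an exchange factor recruited by Eph receptors, by 0.25 (adjusted p = 0.0147). The adaptor Crkl fell by 0.24 (adjusted p = 0.0404) and Arhgap35, which encodes p190RhoGAP, fell by 0.24 (adjusted p = 0.0377). Crkl lost the call without pcDNA3 replicate 1 or 2 or GRHL2 replicate 1, 3 or 4 (adjusted p from 0.0501 to 0.101), and Arhgap35 without pcDNA3 replicate 1 or any of the GRHL2 samples (0.0588 to 0.0955).

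Of 39 semaphorin, plexin and neuropilin partners, 7 were called higher (10.5% of all genes) and 0 lower (5.91%; limma, 1 lower at an unadjusted p under 0.05). With the replicate block these were 14 (18.2%) and 2 (13.9%). The median difference was 0.04. The highest was Flt1, a VEGF receptor that is also an endothelial marker, which went from 4.89 ± 0.095 to 5.45 ± 0.22 (0.56, adjusted p = 0.00435). Pcsk6, a proprotein convertase, rose by 0.44 (adjusted p = 0.00134), L1cam, an adhesion molecule of the Sema3a receptor complex, by 0.37 (adjusted p = 0.0268; 0.0555 to 0.0747 without pcDNA3 replicate 1, 3 or 4 or GRHL2 replicate 1 or 2), and Erbb2, a receptor kinase that pairs with plexin-B1, by 0.34 (adjusted p = 0.00272). Met and Mst1r, further receptor kinases known to pair with plexin-B1, differed by -0.03 (adjusted p = 0.712) and 0.06 (adjusted p = 0.509). Over both lists together, 16 of 74 genes were called in either direction (16.4% of all genes), and 32 with the replicate block (32.1%).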

How the data were processed

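RNA-seq (paired-end, total RNA) of 4 GRHL2 and 4 pcDNA3 samples of BMEL cells was read from the table of log2 values deposited by the authors. The table is named for FPKM, but its values run from -2.85 to 18.01 with 4.81% below 0, and they were read as the authors' rlog values of DESeq2 less the log2 transcript length. This is a reading of the values, since the methods speak of dividing rlog values by transcript length. For how the authors made them, the submitters' processing notes name HISAT2 2.2.1, HTSeq 0.9.1, DESeq2 1.40.2, mm10 and GRCm39. The methods for bulk RNA-seq, which open with the download of public data, describe counting on exons without strand, and they were taken to hold for these samples. The depth of the samples is therefore unknown. SEs and intervals rest on the spread between replicates, with the variance of each gene moderated towards a trend over all genes.

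Groups and replicate numbers came from the sample titles. All 18671 genes were fitted with limma 3.58.1 in R 4.3.3 (2 groups, no covariate, moderated variances with trend, p adjusted by Benjamini-Hochberg, threshold 0.05). Linear values were planned for. The values were already log2, so no pseudocount was added. Tables were made with pandas 2.3.3 in Python 3.11.15. On simulated data for this comparison, 187 of 200 changed genes were recovered, with 11 false calls among 18471. This total is not split by size of difference, and recovery at differences as small as those of most members was not tested. Same-numbered samples deviated together (r from 0.474 to 0.645 across genes, mean 0.558, against -0.183 for other numbers), and the numbers in the titles were taken as pairs.

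The members and lists were chosen with earlier results of these data known. Named were Grhl2, every called member, the leading member of each role and the 4 largest called partners of each list, and the 12 called members with the largest differences got every sample's value. Ligand and receptor pairs, Met, Mst1r, Crkl, Arhgap35 and further members outside this rule were named after their values were seen. Positions are those of GENCODE release M21 on GRCm38 (mm10), matched by symbol, and start windows are from RefSeq. Alternatives were other scalings, GC correction (18428 genes), the replicate block, a term for replicates 1 and 2 against 3 and 4, a mean value of at least 5, no trend and leaving samples out.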

Additional observations from a re-analysis of the deposited data

Results flagged for a closer look

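Values of 53 genes in each group of 4 (Grhl2, the members called with or without the block, the leading member of each role, and called partners and other guidance genes named in the text; 106 groups) were checked for a sample far from the other 3. Chance gives about 1 in 20, and the 3 groups found among 106 were fewer than that. All had GRHL2 replicate 2 as the highest sample. Sema6d lay at 5.13 in this sample and at 4.85 to 4.87 in the others. Sema5b lay at 1.89, against 1.72 in each of the others. Sema6a lay at 7.71, against 7.18 to 7.21. Without this sample Sema6a was called lower (difference -0.45, limma adjusted p = 0.0322), against -0.32 and 0.162 with it. The pcDNA3 sample of the same number was also the highest of its group (8.01, against 7.48 to 7.59), and without replicate 2 in both groups the difference was -0.33 (adjusted p = 0.00398). Without replicate 2 in both groups, an alternative chosen after seeing the data, 16 members were called higher in place of 20, and 2 lower in place of 1.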

How the results depend on the processing

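Of the 21 called members, 9 (Ephb2, Plxnc1, Ephb3, Sema3f, Plxnb1, Sema4d, Efna3, Plxnb3 and Epha10) kept the call in every alternative run for them. Efnb1 was called in 8 of 20 alternatives, Ephb1 in 10 of 19, and Ephb6 and Nrp2 in 12 of 20 each. The 20 members called higher became 10 within replicates 1 and 2, and 8 among the 32 with a mean value of at least 5 (6.52% of the genes tested), where fewer genes are tested. Leaving out each sample in turn gave 15 to 19. The 1 member called lower became 5 with the replicate block, 6 with GC correction and the block, 4 with a term for replicates 1 and 2 against 3 and 4, 3 within replicates 3 and 4, and 0 at a mean of at least 5 (limma; 2 at an unadjusted p under 0.05). Leaving out each sample in turn gave 1 to 2, with 2 without GRHL2 replicate 2 and also without replicate 2 in both groups (chosen after seeing the data). The 16 partners called became 32 with the block, 32 with GC correction and the block, 30 with the replicate term and 8 within replicates 1 and 2. Leaving out samples gave 9 to 15, the lowest being 9 without pcDNA3 replicate 1 and 10 without GRHL2 replicate 1. The block lost no member's call. Members called higher and lower were 21 and 1 with an equal upper quartile and 20 and 1 with an equal sum. None of the scalings shifted all differences by more than 0.030. Where no share of all genes called in the same fit is given here or above, a count cannot be set against a background.

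Differences near 0 changed sign. Nrp1 (-0.0095) became 0.013 with an equal upper quartile, 0.015 with an equal sum, 0.0065 with GC correction with or without the block, 0.084 within replicates 1 and 2, and ran from -0.16 (without GRHL2 replicate 2) to 0.095 (without GRHL2 replicate 4) as samples were left out in turn. Plxna1 (0.018) became -0.013 with an equal median, -0.015 with GC correction with or without the block, and ran from -0.023 (without pcDNA3 replicate 3) to 0.062 (without pcDNA3 replicate 2). Plxnb2 (0.021) became -0.0096 with an equal median and -0.015 with GC correction with or without the block. The cause was not tested. The planned pseudocount was not run, since the values were already log2. Depth is unknown, and if the values are rlog, as they were read, differences of low members are understated.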

Other observations

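Genes of the other guidance families (slits and Robo receptors, netrins with their Unc5 and neogenin receptors, Rgm and Draxin) were added after seeing the data. Of 19 in the table, 10 were called higher (10.5% of all genes) and 1 lower (5.91%), with a median difference of 0.14, and 9 of the 10 had a mean value under 5. Ntn1, the secreted cue netrin-1, lay at 3.55, 3.65, 3.53 and 3.38 in pcDNA3 samples and at 4.25, 4.58, 4.18 and 4.02 in GRHL2 samples. The groups did not overlap, and Ntn1 rose by 0.73 (SE 0.104, limma adjusted p = 0.00162). Its receptor gene Unc5c lay at 4.85, 4.90, 4.73 and 4.52 and at 5.49, 5.84, 5.07 and 5.10, again without overlap, and rose by 0.63 (SE 0.159, adjusted p = 0.0249; 0.0514 to 0.0661 without pcDNA3 replicate 1, 3 or 4 or GRHL2 replicate 1). Slit2, a ligand of Robo receptors, rose by 0.32 (adjusted p = 0.0118). Neo1, which encodes neogenin, a receptor of netrins and Rgm proteins, was the gene called lower. It was abundant, at 10.22, 10.52, 10.17 and 10.16 in pcDNA3 samples and 9.96, 10.03, 9.92 and 9.93 in GRHL2 samples, and fell by 0.31 (SE 0.079, adjusted p = 0.0252; 0.0537 to 0.0638 without pcDNA3 replicate 1 or GRHL2 replicate 1, 3 or 4).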
